A study of Mus musculus with 11 samples.

Results

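Levels of 10 genes that mark or regulate the interneuron subtypes of the olfactory bulb were read from the count table: the calretinin gene Calb2, the calbindin gene Calb1, the tyrosine hydroxylase gene Th, and the transcription factor genes Pax6, Etv1, Tshz1, Sp8, Sp9, Vax1 and Zic1. They were chosen by name, matched to Ensembl identifiers, and make up 10 of the 39179 genes in the table. RNA came from GFP-positive cells sorted from the V-SVZ (ventricular-subventricular zone, a germinal layer that lines the lateral ventricles) of CD1/Swiss mice at postnatal day 2. All animals carried Gsh2-Cre, which acts in progenitors of the ventral forebrain, and RCE, a reporter allele that turns on GFP after Cre has acted. The 6 control libraries came from Zeb2fl/wt animals and the 5 mutant libraries from Zeb2fl/ko animals. Cre was thus present in the controls too, which are expected to keep 1 working allele of Zeb2 in the sorted cells, while the null allele in the mutants is carried by all cells of the animal. Whether the libraries are from different animals is not said, so p-values measure the spread between libraries, which may be technical.

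The neonatal V-SVZ sends young neurons along the rostral migratory stream to the olfactory bulb, where they become granule cells of the deep layer or periglomerular cells around the glomeruli. Periglomerular cells are classed by what they express: calretinin, calbindin, or tyrosine hydroxylase, the rate-limiting enzyme of dopamine synthesis. Pax6 and Etv1 are known for their part in the dopaminergic class, Sp8, Sp9 and Zic factors for the calretinin class and for bulb interneurons more widely, Tshz1 for the maturation of these cells in the bulb, and Vax1 for ventral forebrain progenitors. None of these genes is limited to the olfactory bulb. Calretinin and calbindin are also made by interneurons of the cortex and striatum, calbindin by striatal projection neurons, and Pax6 by radial glia.

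Among the 10 genes, Calb2 and Pax6 rose in the mutant libraries, and no gene fell past the threshold of an adjusted p of 0.05 (edgeR's quasi-likelihood test, Benjamini-Hochberg adjustment over 14104 genes). Of the 10 genes 9 were tested and Zic1 did not pass the filter on low counts. Of all 14104 genes tested 2.68% rose, 1.74% fell and 4.42% changed in either direction. The median log2 fold change of the 9 genes was -0.17, against -0.02 over all genes tested. Calb1 was higher in every mutant library than in any control without passing the test, and Th was low in 4 of the 5 mutant libraries. Each library holds the RNA of many sorted cells, so a change in the number of cells of a type and a change in RNA per cell cannot be told apart.

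Levels are CPM, read counts relative to the library total scaled by TMM factors, given as mean ± SD over 6 control and 5 mutant libraries. Library depth was 6833981 to 13073505 counts, and a floor of 3 counts corresponds to 0.229 to 0.439 CPM. The gene-level count of Zeb2 does not check the genotype, since it includes exons outside the deleted part: it ranged from 154 to 281 CPM over the control libraries and from 214 to 365 CPM over the mutant ones. Control libraries 1, 2, 3 and 6 held 763 to 2716 counts of 4 Y-linked genes and the other libraries, mutants included, held 0, so that no mutant library was male and sex is partly confounded with group. Mutant 5 held 204 CPM of Ttr, the most abundant transcript of choroid plexus, against at most 0.836 CPM elsewhere, and the highest share of the abundant transcript Gm42418, 12.2% of its counts against 6.25% to 9.79%. For 5 other cell sources, markers were summed over each list. Microglial markers reached at most 8.78 CPM, ependymal markers 16.1 CPM and blood markers 5.02 CPM. Endothelial and mural markers reached 47.7 CPM and pallial glutamatergic markers 111 CPM. None of the genes tested on these 5 lists passed the test. Oligodendrocyte precursor markers summed to more, 1252 to 2964 CPM in control and 890 to 1597 CPM in mutant libraries. Radial glial and astrocyte markers summed to 1044 to 1984 CPM in control and 921 to 1815 CPM in mutant libraries.

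2 pairs of genes on the list are close relatives, and the longest identical run in their coding sequences is shown for each pair. Stretches that match with a few differences, and exons outside the coding sequence, were not compared. Calretinin and calbindin are hexa-EF-hand calcium-binding proteins, encoded by Calb2 on chromosome 8 (chr8:110137502-110168210, minus strand, GRCm38) and Calb1 on chromosome 4 (chr4:15881264-15908064, plus strand). In the GENCODE M21 coding sequences, of 816 and 786 bases, the longest run that both genes share letter for letter is 12 bases. It is shown in capitals with 30 bases on either side.
Calb2: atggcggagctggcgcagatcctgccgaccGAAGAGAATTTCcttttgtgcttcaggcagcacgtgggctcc
Calb1: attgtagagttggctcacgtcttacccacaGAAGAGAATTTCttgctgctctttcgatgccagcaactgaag
Sp8 (chr12:118846329-118852576, plus strand) and Sp9 (chr2:73271925-73284706, plus strand) encode zinc finger factors of the Sp family, and their coding sequences of 1461 and 1455 bases share a run of 44 bases.
Sp8: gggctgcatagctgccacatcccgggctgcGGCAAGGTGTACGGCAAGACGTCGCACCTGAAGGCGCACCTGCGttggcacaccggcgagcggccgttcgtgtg
Sp9: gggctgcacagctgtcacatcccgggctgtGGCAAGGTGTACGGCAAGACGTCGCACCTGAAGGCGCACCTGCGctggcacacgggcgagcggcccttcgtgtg
Neither the read length nor the handling of reads that align more than once is stated in the sources used here. How far reads were exchanged between Sp8 and Sp9, in this stretch or around it, thus cannot be told from the counts. Exons of Sp9 also overlap 270 bases of Cir1 on the opposite strand, and exons of Zic1 overlap 60 bases of Zic4.

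Calb2 was low in the controls and rose in every mutant library. The control libraries 1 to 6 held 43.0, 8.69, 11.2, 23.9, 10.8 and 23.9 CPM, from 97 to 289 reads each. The mutant libraries 1 to 5 held 219, 337, 370, 232 and 305 CPM, from 2847 to 3671 reads each. The lowest mutant thus lay above the highest control, control 1. Means were 20.3 ± 13.03 CPM (SD, n = 6) and 292 ± 65.6 CPM (SD, n = 5), a ratio of 14.4, with a log2 fold change of 3.87 (95% interval 3.10 to 4.63, SE 0.359, adjusted p = 1.69e-05), the 14th highest of the 14104 genes tested. Relative to its mean the gene varied more among the controls (coefficient of variation 64.3%) than among the mutants (22.4%).

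**Figure D1:**
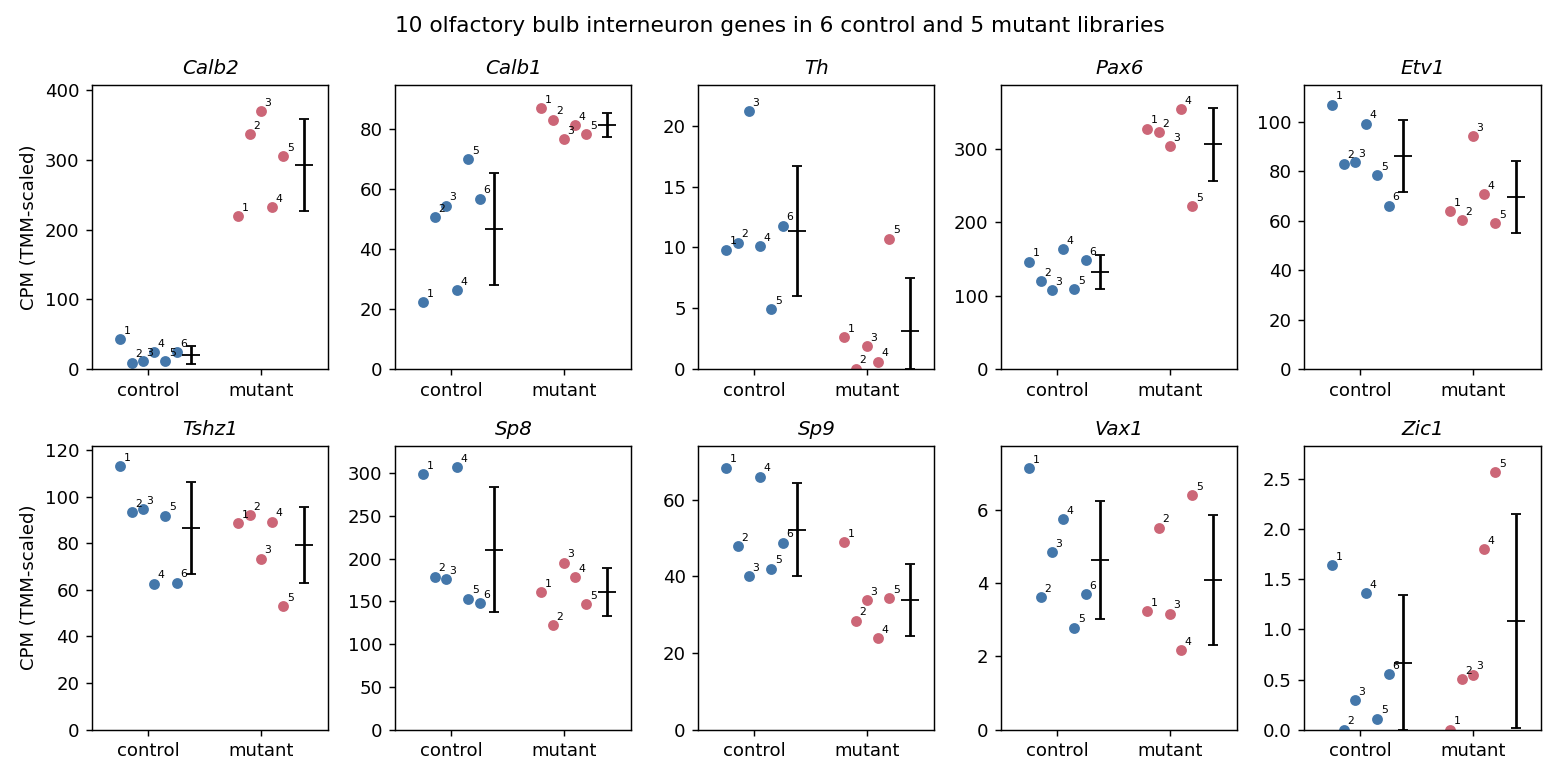
Level of each of the 10 genes in CPM (vertical axis, from 0) in the 6 control (blue) and 5 mutant (red) libraries, with replicate numbers beside the points and the mean ± SD as a black bar, cut at 0. The mutants lie above all controls for Calb2, Calb1 and Pax6 and overlap them for the other 7 genes, and mutant 5 stands apart for Th.

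Calb1, which is transcribed from a separate locus, was uniform in the mutants and variable in the controls. The control libraries 1 to 6 held 22.2, 50.6, 54.4, 26.2, 70.0 and 56.8 CPM, and the mutant libraries 1 to 5 held 87.0, 83.1, 76.7, 81.4 and 78.4 CPM. Every mutant lay above every control, but the highest control, at 70.0 CPM, was close to the lowest mutant, at 76.7 CPM. Means were 46.7 ± 18.6 and 81.3 ± 4.07 CPM, with coefficients of variation of 39.9% and 5.00%. The log2 fold change of 0.80 (95% interval 0.279 to 1.32) did not pass the test (edgeR adjusted p = 0.0838). It passed with DESeq2 (adjusted p = 0.0202), with limma-voom (adjusted p = 0.0394) and without control 5 (0.95, edgeR adjusted p = 0.0353), and was 0.49 without controls 1 and 4 (edgeR adjusted p = 0.0688). Of the 9 tested genes of the list 3 had every mutant above every control, namely Calb2, Pax6 and Calb1, and 0 had every mutant below. Over the 14104 genes tested the groups lay apart in 4.91%, with the mutants higher in 2.89% and lower in 2.03%.

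Th, the dopaminergic gene of the list, was a minor transcript in all libraries. The control libraries 1 to 6 held 66, 129, 215, 97, 44 and 128 reads, or 9.82, 10.4, 21.2, 10.1, 4.89 and 11.8 CPM. The mutant libraries 1 to 5 held 34, 0, 17, 8 and 129 reads, or 2.61, 0.0, 1.86, 0.60 and 10.7 CPM. Mutants 1 to 4 lay below every control, and mutant 5 lay inside the range of the controls. With 0 reads, mutant 2 allows up to 0.294 CPM, for counting error only. Over all libraries the log2 fold change was -1.84 (95% interval -3.44 to -0.24, adjusted p = 0.214 with edgeR), and without mutant 5 it was -3.15 (adjusted p = 0.0174 with edgeR). Mutant 5 is also the library with Ttr reads, and the part of either in the other was not tested.

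For 12 further genes of the dopaminergic phenotype, read beside Th, 0 of the 10 tested passed the test in either direction (median log2 fold change -0.37). Slc18a2, which encodes the vesicular monoamine transporter, averaged 26.5 ± 11.8 CPM in control and 14.8 ± 4.25 CPM in mutant libraries (log2 fold change -0.84, edgeR adjusted p = 0.142). Ddc, encoding the decarboxylase that turns L-DOPA into dopamine, stood at 2.70 ± 1.78 and 3.76 ± 2.19 CPM. Slc6a3, the dopamine transporter gene, and Gch1, which encodes the first enzyme of the cofactor pathway of Th, were below the filter, with means of 0.345 and 0.832 CPM for Slc6a3 and 0.701 and 0.796 CPM for Gch1. The genes of the list with the highest CPM were Meis2, a homeobox factor gene, at 549 ± 114 and 396 ± 9.45 CPM (log2 fold change -0.47, edgeR adjusted p = 0.0546), and Klf7, at 114 ± 28.5 and 89.2 ± 14.0 CPM (log2 fold change -0.36, edgeR adjusted p = 0.293). Of the genes that serve dopamine synthesis and storage, only Qdpr, Pts and Slc18a2 averaged more than 10 CPM in both groups.

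Pax6, a paired-box factor gene (chr2:105668900-105697364, plus strand), was the one regulator of the list that rose. The control libraries 1 to 6 held 146, 120, 107, 163, 109 and 148 CPM, and the mutant libraries 1 to 5 held 328, 323, 304, 354 and 222 CPM. The groups did not overlap, and mutant 5 was the lowest of the mutants, at 222 CPM against 163 CPM in the highest control. The ratio of means was 2.31 (log2 fold change 1.21, 95% interval 0.906 to 1.52, SE 0.143, edgeR adjusted p = 0.000139). Both groups varied little, with coefficients of variation of 17.7% and 16.4%. Among libraries without Y-linked reads, 2 controls and 5 mutants, Calb2 and Pax6 were past the threshold with log2 fold changes of 4.07 and 1.17 (edgeR adjusted p = 0.000248 and 0.0235).

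**Figure D2:**
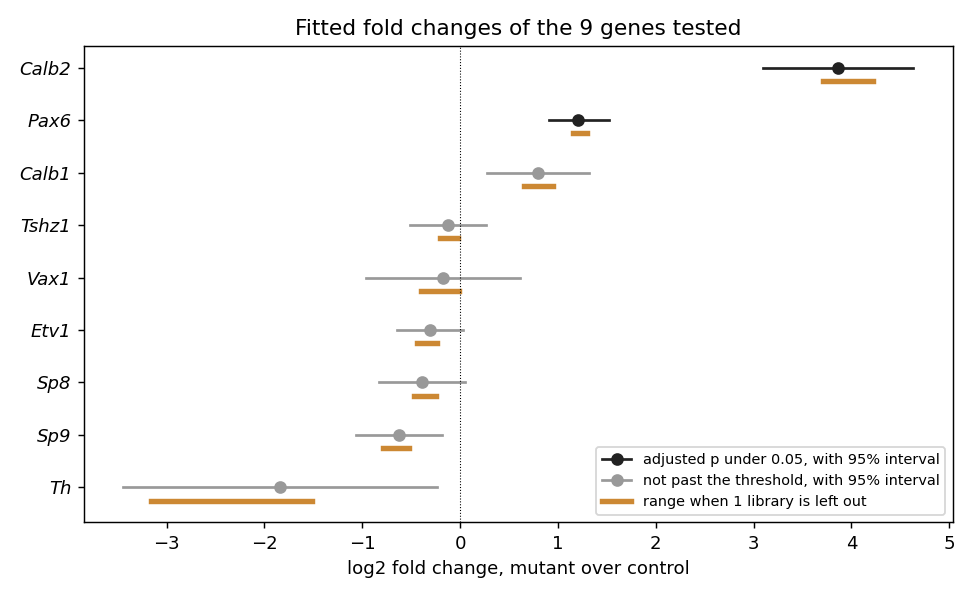
Log2 fold change of mutant over control (horizontal axis) for the 9 genes tested, with 95% intervals, black where the adjusted p was under 0.05 and grey otherwise; orange bars give the range over the 11 fits that leave out 1 library. Calb2 (3.87) and Pax6 (1.21) are the genes past the threshold, and the range of Th is the widest, from -3.15 to -1.51.

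None of the other regulators passed the test. Sp8 is needed for calretinin-positive bulb interneurons. It stood at 299, 179, 176, 307, 153 and 148 CPM in controls 1 to 6 and at 161, 122, 195, 178 and 147 CPM in mutants 1 to 5. 4 of the 6 controls thus shared the range of the mutants, and controls 1 and 4 were higher. The log2 fold change of Sp8 was -0.39 (95% interval -0.824 to 0.0487, edgeR adjusted p = 0.356), and -0.03 without controls 1 and 4 (edgeR adjusted p = 0.967). Sp9, its paralog, stood at 68.4, 47.9, 40.1, 66.1, 42.0 and 48.8 CPM in controls 1 to 6 and at 48.9, 28.4, 33.8, 23.9 and 34.4 CPM in mutants 1 to 5. Mutant 1 alone overlapped the controls. The log2 fold change of Sp9 was -0.62 (95% interval -1.06 to -0.188, edgeR adjusted p = 0.109). It passed with DESeq2 (-0.62, adjusted p = 0.046) and without mutant 1 (-0.79, edgeR adjusted p = 0.0475), and was -0.40 without controls 1 and 4 (edgeR adjusted p = 0.412). The fitted values of both Sp genes were below 0 without passing the edgeR test over all libraries. Their part in the rise of Calb2 was not tested.

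Etv1, an ETS factor gene, stood at 107, 83.2, 83.7, 99.3, 78.4 and 66.1 CPM in controls 1 to 6 and at 63.8, 60.3, 94.4, 70.9 and 59.1 CPM in mutants 1 to 5 (log2 fold change -0.31, 95% interval -0.642 to 0.0278, edgeR adjusted p = 0.336). Without controls 1 and 4 the value was -0.16 (edgeR adjusted p = 0.755). Mutant 3 was higher than 4 of the 6 controls, and mutants 1, 2 and 5 were lower than all of them. Tshz1, a zinc finger homeobox gene, ranged from 62.6 to 113 CPM in the controls (median 92.6) and from 53.0 to 91.9 CPM in the mutants (median 88.5). Its log2 fold change was -0.12 (95% interval -0.514 to 0.265, edgeR adjusted p = 0.792), and the sign turned to 0.04 among libraries without Y-linked reads, to 0.06 with the Y-linked level as a covariate, and to 0.00334 without control 1, control 6 and mutant 5. Vax1, a homeobox gene, held 2.78 to 7.14 CPM in the controls and 2.17 to 6.40 CPM in the mutants (log2 fold change -0.17, 95% interval -0.965 to 0.616, edgeR adjusted p = 0.866), and 0.13 without controls 1 and 4 (edgeR adjusted p = 0.942). The intervals of Etv1, Tshz1 and Vax1 lie within a 2-fold change in either direction.

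Zic1, a zinc finger gene, was barely detected. The control libraries 1 to 6 held 11, 0, 3, 13, 1 and 6 reads and the mutant libraries 1 to 5 held 0, 5, 5, 24 and 31 reads. The highest control held 1.64 CPM and the highest mutant 2.57 CPM, and the groups overlapped. Without the filter its log2 fold change was 0.77 (edgeR adjusted p = 0.752), so no difference was detectable at this depth.

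Per kilobase of exons, Sp8 was the most abundant of the 10 genes in the controls and Calb2 in the mutants. The length used is that of all annotated exons of a gene merged, 4558 bases for Sp8, 11694 for Pax6 and 1743 for Calb2. Lengths of the transcripts present in these cells were not measured, so the order depends on this choice. Before division by length, mean Sp8 and Pax6 were 210 and 132 CPM in the controls. Mean Pax6 and Calb2 were 306 and 292 CPM in the mutants. In the controls Sp8 stood at 46.2 ± 16.0 CPM per kb, and its lowest library lay above every library of the other genes. Tshz1 (14.8 ± 3.38), Calb2 (11.6 ± 7.47), Pax6 (11.3 ± 2.00), Sp9 (10.35 ± 2.41) and Calb1 (9.63 ± 3.85 CPM per kb) followed with overlapping libraries, so that their order is not resolved. Etv1 (6.49 ± 1.11), Th (4.81 ± 2.27) and Vax1 (4.15 ± 1.44 CPM per kb) had lower means. Their libraries overlapped each other and those of Calb2 and Calb1, which reached down to 4.98 and 4.57 CPM per kb. The order of these genes is thus not resolved either, and Zic1 was last at 0.116 ± 0.120 CPM per kb. In the mutants Calb2 reached 168 ± 37.6 CPM per kb, and its lowest library lay above the highest of Sp8 (35.3 ± 6.10 CPM per kb). Pax6 (26.2 ± 4.29 CPM per kb) overlapped Sp8, and every mutant library of Pax6 lay above every one of Calb1 (16.8 ± 0.839 CPM per kb). Tshz1, Sp9, Etv1, Vax1, Th and Zic1 followed at 13.5 ± 2.80, 6.72 ± 1.87, 5.24 ± 1.09, 3.67 ± 1.59, 1.34 ± 1.84 and 0.191 ± 0.187 CPM per kb.

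**Figure D3:**
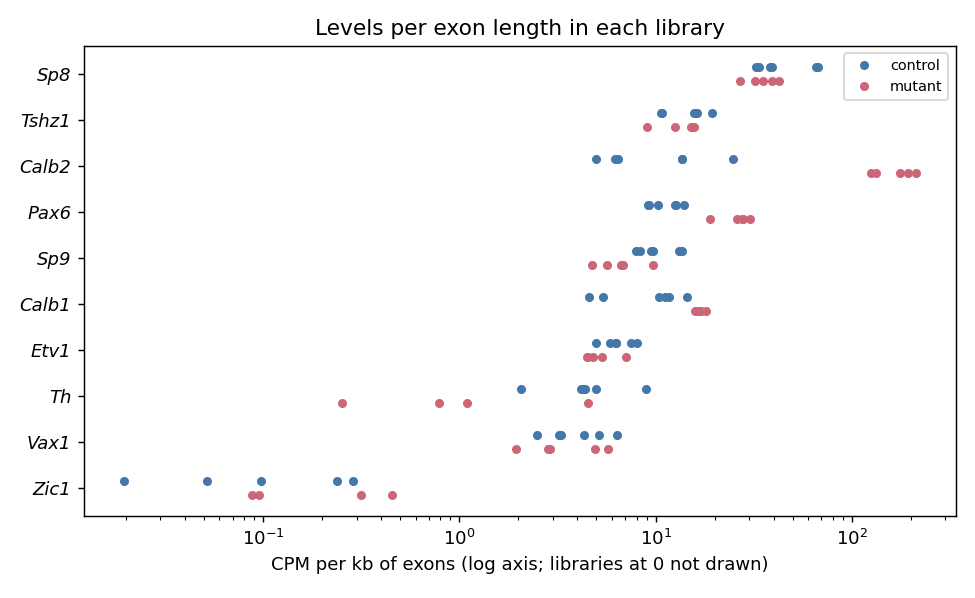
Level per exon length in CPM per kb (horizontal log axis) of each gene in each control (blue) and mutant (red) library, ordered by the mean of the controls; libraries with 0 reads are not drawn. Sp8 lies above the other genes in the controls, and Calb2, the third from the highest by the mean of the controls at 11.6 CPM per kb, has a mean of 168 CPM per kb in the mutants.

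2 control libraries stood apart on several genes of the list at once. Controls 1 and 4 held 22.2 and 26.2 CPM of Calb1, against 50.6 to 70.0 CPM in the other 4 controls. The same libraries held the highest values of Sp8 (299 and 307 against 148 to 179 CPM), Sp9 (68.4 and 66.1 against 40.1 to 48.8 CPM) and Etv1 (107 and 99.3 against 66.1 to 83.7 CPM). They were also highest for Vax1 (7.14 and 5.75 against 2.78 to 4.84 CPM) and Zic1 (1.64 and 1.36 against at most 0.555 CPM), whereas Tshz1 was highest in control 1 and lowest in control 4. Control 1 carried Y-linked reads and control 4 did not. The summed level of markers of caudal ganglionic eminence interneurons, with Sp8 left out of the sum, was 277 and 268 CPM in these libraries against 185 to 252 CPM. Striatal projection neuron markers summed to 815 and 1351 CPM against 1251 to 2485 CPM, and radial glial and astrocyte markers to 1044 and 1226 CPM against 1357 to 1984 CPM; their part in the difference was not tested. The mutants were alike in Calb1 and did not split in this way. Since the controls form separate clusters, no correlation between the listed genes across them is given.

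**Figure D4:**
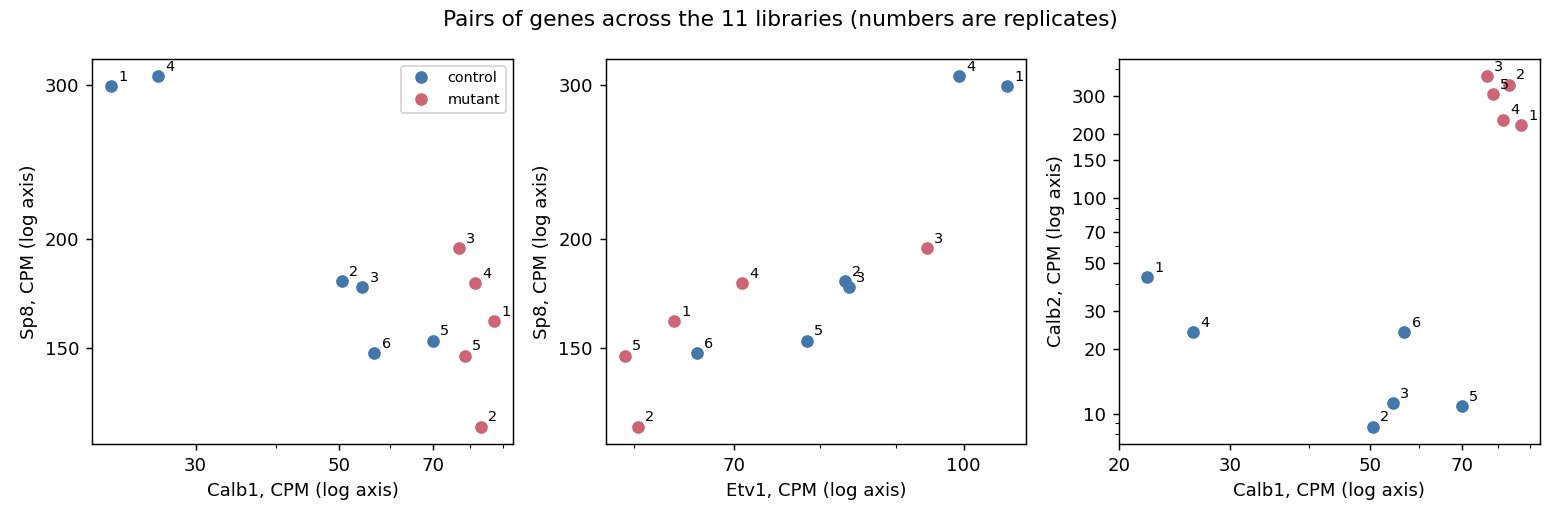
Levels in CPM (log axes) of Sp8 against Calb1, Sp8 against Etv1, and Calb2 against Calb1 in the 6 control (blue) and 5 mutant (red) libraries, with replicate numbers. Controls 1 and 4 (Sp8 at 299 and 307 CPM) lie apart from the other controls in the panels with Sp8, and all mutants lie above all controls for both Calb1 and Calb2.

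Other genes of the bulb interneuron lineage moved in both directions. Of 22 lineage factors and receptors 21 were tested, of which 3 rose, 3 fell and 15 did not pass (median log2 fold change -0.21). Prokr2, a receptor gene needed for migration to the bulb, rose from 234 ± 51.5 to 427 ± 101 CPM (log2 fold change 0.87, edgeR adjusted p = 0.00685). Neurod1, a proneural factor gene, rose from 4.76 ± 2.44 to 20.05 ± 9.92 CPM (edgeR adjusted p = 0.0107) and Id2, encoding an inhibitor of basic helix-loop-helix factors, from 66.4 ± 23.4 to 124 ± 31.4 CPM (edgeR adjusted p = 0.0305). Sall1, which encodes a zinc finger factor, fell, with means of 92.0 ± 24.3 and 42.3 ± 5.86 CPM (log2 fold change -1.12, edgeR adjusted p = 0.00159), as did the homeobox gene Prox1, from 68.1 ± 7.75 to 46.2 ± 3.65 CPM (edgeR adjusted p = 0.0165), whose exons overlap Prox1os. Rarb, which encodes a retinoic acid receptor, fell by 1.56 on the log2 scale (edgeR adjusted p = 0.00953), and its exons share 1793 bases with Top2b on the opposite strand. Rarb is counted again below among the striatal projection neuron markers that fell, and Prox1 among the markers of caudal ganglionic eminence interneurons. The Dlx genes, which mark the ventral forebrain lineage, were abundant in both groups: Dlx1, whose exons overlap Dlx1as, stood at 807 ± 173 and 806 ± 45.9 CPM and Dlx2 at 771 ± 228 and 720 ± 42.5 CPM.

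The calls on that list differed in how far they held. Those of Sall1 and Rarb held under all 24 alternatives. Id2 was no longer past the threshold in 8 of the 11 fits that left out a library (range 0.76 to 1.08), nor was Prox1 without mutant 1 (-0.52, edgeR adjusted p = 0.0562). Among libraries without Y-linked reads the log2 fold changes were 0.69 for Prokr2, 2.075 for Neurod1, 0.93 for Id2 and -0.59 for Prox1, and none of these 4 passed (edgeR adjusted p = 0.218, 0.136, 0.196 and 0.159).

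Of 15 genes of maturing bulb interneurons 11 were tested, of which 3 rose, 0 fell and 8 did not pass (median log2 fold change -0.03). Nos1, the neuronal nitric oxide synthase gene, rose from 19.4 ± 7.41 to 226 ± 45.8 CPM (log2 fold change 3.55, edgeR adjusted p = 2.62e-07). Gad2 encodes a glutamate decarboxylase that makes GABA and went up from 334 ± 75.6 to 670 ± 76.0 CPM (edgeR adjusted p = 0.000894, and 0.0746 with the Y-linked level as a covariate, where the value was 0.72). Cacng5, which encodes an auxiliary subunit of AMPA receptors, rose from 40.4 ± 11.5 to 133 ± 19.3 CPM (edgeR adjusted p = 5.28e-05). Tpbg, the gene of a leucine-rich repeat glycoprotein of bulb granule cells, was lower in every mutant, at 31.0 ± 8.20 and 18.4 ± 3.63 CPM, without passing the test (log2 fold change -0.75, edgeR adjusted p = 0.063), and was named after its values were seen. Synpr, which encodes the vesicle protein synaptoporin, stood at 280 ± 31.6 and 237 ± 72.9 CPM (edgeR adjusted p = 0.496).

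Nos1 is also expressed by interneurons of the medial ganglionic eminence (MGE). Of 12 markers of that lineage 7 rose (Sst, Npy, Sox6, Lhx6, Nkx2-1, Chodl and Nxph1). Their summed level was 569 to 927 CPM in the controls and 2851 to 4127 CPM in the mutants, and none was at 0 reads in all libraries. Markers of caudal ganglionic eminence interneurons, which can also hold calretinin (a list that includes Sp8), summed to 339 to 576 CPM and 303 to 391 CPM, with 0 of 7 tested higher and 1 lower. Vip, a gene of calretinin-positive cortical interneurons, was below the filter: it had 0 reads in every mutant library and in 4 of 6 controls, and 5 and 26 reads in controls 1 and 4. Of 16 striatal projection neuron markers 8 fell and 1 rose, and their sum was 815 to 2485 CPM in control and 458 to 714 CPM in mutant libraries. The count of lower genes was 5 without control 2, control 3 or mutant 4, and also among the libraries without Y-linked reads; Drd2, Ppp1r1b and Six3, and the rise of Drd1, missed the threshold in 8 to 11 of the 24 alternatives, and Adora2a, Bcl11b, Foxp1, Rxrg and Rarb in none. Of 8 oligodendrocyte precursor markers Gpr17 fell, and of 11 radial glial and astrocyte markers Vim fell and Hopx rose. Gpr17 missed the threshold without control 3 or any 1 of mutants 1 to 4, and among the libraries without Y-linked reads it was -0.75 (edgeR adjusted p = 0.247). Hopx there was 2.65 (edgeR adjusted p = 0.0668) and Nxph1 1.12 (edgeR adjusted p = 0.0852). The part of any of these lineages in the levels of Calb2 and Pax6 was not tested.

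The closest relatives of the listed genes did not change past the threshold (0 of 9 tested; 20 in the table). Scgn, the secretagogin gene and the remaining hexa-EF-hand relative of Calb1 and Calb2, stood at 1.89 ± 0.486 and 3.25 ± 1.46 CPM (log2 fold change 0.77, edgeR adjusted p = 0.36). The ETS genes Etv5 and Etv4, relatives of Etv1, had the highest CPM of the relatives, at 46.5 ± 8.93 and 33.2 ± 6.38 CPM for Etv5 and 17.6 ± 11.1 and 9.04 ± 1.51 CPM for Etv4 (log2 fold changes -0.49 and -0.96, edgeR adjusted p = 0.155 and 0.176). Pax3, Pax8 and Sp6 had 0 reads in all 11 libraries.

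After subtracting the mean of each group, the genes whose log2 CPM followed Calb2 most closely over the 11 libraries were 6330403K07Rik, Ddx49 and Gm9105 (Pearson r = 0.956, 0.952 and 0.952, the highest of 9657 genes searched). For Pax6 they were Sun1, Exd2 and Tsr1 (r = 0.92, 0.916 and 0.912). None of these 6 changed past the threshold between the groups (edgeR adjusted p from 0.407 to 0.886). The libraries share their depth and scaling, and the separate clusters of the controls were not removed. The highest of many values is also high by selection, so these figures are a description.

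Zeb2 and its relatives bind DNA at the letters CACCT. For this reason 1 promoter window is shown for Pax6, which rose, and for Th, which was low in 4 mutants. RefSeq windows (GRCm38.p6) were found for 7 of the 10 genes, but not for Calb2, Calb1 or Tshz1. The 250 bases before each annotated start were searched on both strands for CACCT, and for CACCTG, which contains it. Capitals mark CACCT or its reverse complement AGGTG.
Pax6, chr2:105668646-105668895, plus strand: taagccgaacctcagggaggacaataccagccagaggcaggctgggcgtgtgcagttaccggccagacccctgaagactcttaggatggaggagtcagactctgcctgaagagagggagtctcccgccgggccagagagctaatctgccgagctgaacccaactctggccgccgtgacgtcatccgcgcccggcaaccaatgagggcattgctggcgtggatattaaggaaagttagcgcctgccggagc
Th, chr7:142899996-142900245, minus strand: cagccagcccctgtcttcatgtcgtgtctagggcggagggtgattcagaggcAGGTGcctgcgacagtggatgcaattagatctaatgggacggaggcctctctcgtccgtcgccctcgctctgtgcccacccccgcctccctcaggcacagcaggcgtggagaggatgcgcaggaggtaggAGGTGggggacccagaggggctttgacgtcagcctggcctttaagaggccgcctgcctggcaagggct
The Pax6 window shown held no match, nor did its other window, at chr2:105682213-105682462. The Th window held 2 matches, both on the reverse strand, beginning 198 and 68 bases before the start, the former as part of CACCTG. Of the 11 windows of the 7 genes 3 held CACCT: 1 of Th and 2 of the 3 of Sp8. Over the 32851 windows given for all genes, 46.0% held CACCT and 17.2% held CACCTG. These matches describe the letters in the windows and not binding.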

How the data were processed

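RNA was measured in 11 libraries of sorted GFP-positive V-SVZ cells. The authors deposited unnormalised read counts for each Ensembl gene, 1 column per library. Per the submitters' processing notes, TopHat2 (2.0.13) and featureCounts (1.4.6) were used with mm10, or GRCm38. Annotation release, strand setting and handling of multiply aligned reads are not stated there, so genes with exons on opposite strands of 1 place cannot be told apart.

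Symbols, coordinates and exon lengths were taken from GENCODE M21 (GRCm38), with names added from a gene name table; 37693 of 39179 identifiers matched, with at least 99.67% of the counts in each library. Sample titles gave the groups. The lowest chi-square per degree of freedom between replicates was 14.6, more than sampling noise, so each library counted as 1 sample. edgeR 4.0.16 in R 4.3.3 was fitted to all libraries: filterByExpr, TMM, robust quasi-likelihood, Benjamini-Hochberg adjustment over 14104 genes, threshold 0.05. CPM values are TMM-scaled, and standard errors were derived from the fold change and the F statistic. The fit was tested on simulated data with 200 changed genes. It recovered 53% of the 2-fold and 84% of the 4-fold changes, with 4 false calls among 141. A gene that did not pass may thus still have changed.

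The 10 genes and the 16 gene lists were chosen with earlier results of these data known. From each list the genes past the threshold, or where none passed the 2 with the highest mean, are the ones to be named; other genes named were chosen for their role after their values were seen, and the genes most like Calb2 and Pax6 were those with a mean of at least 10 CPM and the highest correlation. The alternatives were no composition scaling, upper quartile or RLE factors, no filter, a minimum of 1 CPM in 5 libraries, limma-voom (limma 3.58.1), DESeq2 1.42.0, each library left out, a replicate block, libraries without Y-linked reads, a Y-linked covariate and no Gm42418. Chosen after seeing the data were fits without controls 1 and 4, and without control 1, control 6 and mutant 5. Some genes that this rule would name are not reported here.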

Additional observations from a re-analysis of the deposited data

Results flagged for a closer look

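Th in mutant 5, at 10.7 CPM from 129 reads, lay far from the other 4 mutant libraries, which held 0.0 to 2.61 CPM: its gap to the nearest of them was 0.756 of the range of the group, above the critical value of 0.71 for 5 samples. It was the only flag among the highest and lowest values of the 10 genes in both groups, 40 comparisons in all, where chance flags about 1 group in 20. Mutant 5 was also the lowest mutant for Pax6 (222 CPM) and Tshz1 (53.0 CPM) and the library with 204 CPM of Ttr.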

How the results depend on the processing

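Over 24 alternatives Calb2 (log2 fold change 3.71 to 4.42) and Pax6 (1.14 to 1.39) kept their direction and stayed past the threshold. The number of listed genes past the threshold was 2 or 3 higher and 0 or 1 lower: 1 lower with DESeq2 (Sp9) and without control 1, control 6 and mutant 5 (Th), and 0 to 1 lower over the fits without 1 library. Of all genes tested, 378 were higher and 245 lower. DESeq2 gave 613 and 495, libraries without Y-linked reads 150 and 68, the Y-linked covariate 120 and 66, and the fits without 1 library 269 to 405 and 149 to 251. Without controls 1 and 4, 251 were higher. Signs turned for Tshz1 (0.044 among libraries without Y-linked reads, 0.057 with the Y-linked covariate, and 0.00334 without control 1, control 6 and mutant 5) and for Vax1 (0.13 without controls 1 and 4); the cause was not tested. Same-numbered libraries did not deviate together (correlations of deviations from -0.137 to 0.0207, 1 of 5 best with its own number). Low correlations cannot show that libraries were unpaired, and pairings other than by number were not tested. The replicate block gave 271 higher and 141 lower genes and the same 2 listed genes. Read counts were low for Zic1, Vax1 and Th, with at most 31, 77 and 215 reads in a library. For Th the result also depended on mutant 5, as given above.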
